A study of Mus musculus with 18 samples.

Results

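The 7 genes examined belong to the surface ectoderm, the layer that covers the embryo and fuses over the closing neural tube. They were the grainyhead-like transcription factor genes Grhl1, Grhl2 and Grhl3, the epidermal transcription factor gene Trp63, and the keratin genes Krt5, Krt8 and Krt18. The genes were taken by name, 7 of the 21883 protein-coding genes placed on mm10, at a time when earlier results of these data were known. H3K27me3, the histone mark deposited by Polycomb repressive complex 2 at silent developmental genes, had been profiled by CUT&Tag, in which an antibody tethers a transposase to the mark. Each library came from 1 headfold, the anterior part of a mouse embryo, at embryonic day 8.5.

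All embryos were labelled Gulo-/-, and Gulo encodes the last enzyme of vitamin C synthesis. The series text instead names B6 and 129S6.B6-Gulo-/- embryos and another assay, bisulfite sequencing, and the sample labels were followed here. There were 4 groups of 3 libraries each, and every group held 2 female and 1 male embryos. The groups were B6 without vitamin C, B6 with vitamin C, 129 without vitamin C and 129 with vitamin C. The supplement was 3.3 g/l in the drinking water of the dams, and the groups without vitamin C received none. Pregnancy codes differed between the embryos of a group, except that B6 with vitamin C held 3 embryos of 1 code. Of the 18 samples of the series, 4 IgG controls and 2 further B6 H3K27me3 samples, replicate 3 of either diet, were not analysed here.

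Between 748 and 4726 peaks were listed per library, over 3.58 to 31.7 Mb of the genome. Read depth is unknown, because the lists give peaks and no reads. The lists of the 6 B6 libraries covered 3.58 to 26.97 Mb, with median peak widths of 1.32 to 4.89 kb. Those of the 6 libraries of 129 covered 6.97 to 31.7 Mb, with median widths of 4.10 to 8.45 kb. B6 without vitamin C replicate 1 and B6 with vitamin C replicate 2 stood apart by median peak widths of 1.32 and 1.41 kb, and B6 without vitamin C replicate 2 by its 748 peaks. A gene counted as marked in a library if its annotated span, extended by 1 kb at each end, was touched by a peak. By this call 2.97% to 17.1% of protein-coding genes were marked per library.

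Grainyhead-like proteins are the vertebrate relatives of fly Grainyhead and maintain epithelial identity by activating genes of cell adhesion. In mice, loss of Grhl3 causes failure of spinal neural tube closure and loss of Grhl2 causes failure of cranial and spinal closure, while Grhl1 acts in the adhesion of skin and hair follicles. Trp63 encodes p63, the master regulator of stratified epithelia. Krt5 is a keratin of basal epidermal cells, and Krt8 and Krt18 encode the partner keratins of simple epithelia, among them the early surface ectoderm. H3K27me3 is found most often over CpG-rich promoters of developmental genes that are silent or poised. In a whole headfold, which holds neural, surface and mesenchymal cells together, a peak does not say which cells carried the mark, and fewer marked cells cannot be told apart from less mark per cell.

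On mm10 the genes lie at chr12:24572232-24617391 (Grhl1), chr15:37232821-37363569 (Grhl2), chr4:135541887-135573632 (Grhl3), chr16:25683763-25892088 (Trp63), chr15:101707069-101712905 (Krt5), chr15:101996711-102004342 (Krt8) and chr15:102028216-102032026 (Krt18). The mark lay over the 3 grainyhead-like genes and was almost absent from the others. Grhl3 was marked in 11 of 12 libraries, Grhl1 in 8 and Grhl2 in 8, whereas Krt8 was marked in 1 and Trp63, Krt5 and Krt18 in 0. Of all protein-coding genes, 20.2% were marked in at least 1 library, against 4 of these 7, while 4.16% were marked in at least 11 libraries, 8.63% in at least 8, and 79.8% in 0. The absence at Trp63, Krt5 and Krt18 was thus the commonest outcome among genes, and marking in most libraries was not.

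Start-site sequences were available from RefSeq (GRCm38.p6, the assembly mm10 stands for) for 5 of the 7 genes (all but Grhl2 and Trp63), each running from 250 bases before to 50 bases after the annotated start. Those of Grhl1 and Grhl3 are shown because peaks covered them in most libraries, and those of Krt18 and Krt5 because no peak did. Each is written 5′ to 3′ on the strand of the gene, with CpG dinucleotides in capitals.
Grhl1 (chr12:24572037-24572336, plus strand): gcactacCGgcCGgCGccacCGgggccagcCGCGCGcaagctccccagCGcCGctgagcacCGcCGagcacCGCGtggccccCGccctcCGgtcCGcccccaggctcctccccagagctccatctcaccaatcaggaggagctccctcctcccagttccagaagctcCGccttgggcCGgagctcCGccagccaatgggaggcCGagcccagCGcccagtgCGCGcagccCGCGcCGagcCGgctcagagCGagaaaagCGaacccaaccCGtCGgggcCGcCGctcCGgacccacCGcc
Grhl3 (chr4:135573583-135573882, minus strand): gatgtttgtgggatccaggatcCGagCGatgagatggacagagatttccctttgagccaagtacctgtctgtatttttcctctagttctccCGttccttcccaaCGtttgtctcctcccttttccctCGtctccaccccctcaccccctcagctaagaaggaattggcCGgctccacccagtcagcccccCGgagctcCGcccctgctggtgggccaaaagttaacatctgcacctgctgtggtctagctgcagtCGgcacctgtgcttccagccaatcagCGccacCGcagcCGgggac
Krt18 (chr15:102027966-102028265, plus strand): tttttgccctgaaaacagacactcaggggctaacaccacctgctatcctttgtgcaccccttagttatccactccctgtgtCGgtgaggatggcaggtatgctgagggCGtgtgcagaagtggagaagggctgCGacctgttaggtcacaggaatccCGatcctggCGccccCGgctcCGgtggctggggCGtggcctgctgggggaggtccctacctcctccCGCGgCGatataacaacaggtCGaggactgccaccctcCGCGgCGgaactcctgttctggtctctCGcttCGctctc
Krt5 (chr15:101712856-101713155, minus strand): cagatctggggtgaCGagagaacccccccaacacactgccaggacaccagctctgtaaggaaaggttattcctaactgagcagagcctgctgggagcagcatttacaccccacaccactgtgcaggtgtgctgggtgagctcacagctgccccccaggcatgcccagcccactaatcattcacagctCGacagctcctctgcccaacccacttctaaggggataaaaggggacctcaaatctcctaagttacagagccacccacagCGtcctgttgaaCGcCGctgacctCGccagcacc

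The Grhl1 window held 35 CpGs and 75.3% G or C, and 9.12% of the 21262 promoter windows of protein-coding genes held as many CpGs or more. Grhl3 held 12 CpGs, close to the median of 13 over all windows. Krt18 held 17 CpGs, Krt5 held 6 and Krt8 held 6. Peaks overlapped the window of Grhl1 in 8 libraries, of Grhl3 in 9, of Krt8 in 1, and of Krt18 and Krt5 in 0. The order of the CpG counts was therefore not the order of the calls, as Krt18 held more CpGs than Grhl3. Among all windows with 10 to 19 CpGs, 7.93% had a peak in at least 8 libraries and 79.6% had none. Among those with 30 or more CpGs, as at Grhl1, the shares were 8.13% and 80.1%. Among those with 0 to 4 CpGs they were 0.961% and 96.3%. A second annotated start of Grhl1 (chr12:24580469-24580768) held 0 CpGs and had no peak in any library. The grainyhead core motif AACCNGTT, searched on both strands, was found in 0 of the 5 genes' windows and in 1.95% of all windows.

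Grhl3 carried the widest of the domains in each library that held it, except B6 with vitamin C replicates 1 and 2. There the widest peaks were at Grhl2 (5.47 kb, replicate 1) and Grhl1 (1.61 kb, replicate 2). In B6 without vitamin C, replicate 1 held 2 peaks of 1.49 and 1.48 kb, replicate 2 none and replicate 4 a peak of 9.43 kb. In B6 with vitamin C the peaks measured 3.96 and 1.31 kb in replicates 1 and 2, and replicate 4 held a peak of 10.1 kb with a further one of 4.83 kb toward the 3′ end of the gene. In 129 the Grhl3 domain measured 10.6, 2.74 and 9.85 kb without vitamin C and 12.1, 10.6 and 9.99 kb with it. The domain was thus near 10 kb in 7 libraries and a few kilobases or less in the other 4 that held it. Where wide, it began between -3.68 and -1.98 kb from the start site, that is upstream of it, and ended 6.80 to 8.42 kb inside the gene, the widest being at chromosome 4, 135565216 to 135577312. The maximum signal of the strongest peak lay inside the gene, downstream of the start, in 11 of 11 libraries, at a median of 1.88 kb and from 0.207 to 3.06 kb. In B6 without vitamin C replicate 1 and B6 with vitamin C replicate 2, the libraries of short peaks, what was called lay entirely inside the gene and left the start site uncovered.

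The Grhl1 domain was narrower than that of Grhl3 in 7 of the 8 lists that held both, and spanned the start on both sides. Its peaks measured 4.13 kb in B6 without vitamin C replicate 4, and 1.61 and 5.98 kb in B6 with vitamin C replicates 2 and 4. In 129 they measured 6.67 and 6.11 kb without vitamin C, in replicates 1 and 3, and 5.90, 5.77 and 5.42 kb with it. All 8 peaks covered the start site and its whole 300-base window. The stretch common to the 8 ran from 24571300 to 24572910 on chromosome 12 (1.61 kb), and the maximum signal lay upstream of the start in 8 of 8, at -0.987 to -0.186 kb. No other protein-coding gene was overlapped by the peaks at Grhl1, Grhl2 or Grhl3.

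At Grhl2 the peaks sat over the lower-coordinate end of the gene span and left the rest of its 130.7 kb free. They measured 4.92 kb in B6 without vitamin C replicate 4, and 5.47, 1.23 and 5.95 kb in B6 with vitamin C. In 129 they measured 4.31 and 5.79 kb without vitamin C, in replicates 1 and 3, and 5.71 and 5.98 kb with it, in replicates 1 and 3. The stretch common to the 8 was 37232009 to 37233241 on chromosome 15 (1.23 kb). The maximum signal lay outside the span, at -1.88 to -0.201 kb from its end, in 8 of 8 libraries. The maxima thus lay outside the gene at Grhl1 and Grhl2 and inside it at Grhl3, in each library with a peak there.

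**Figure D1:**
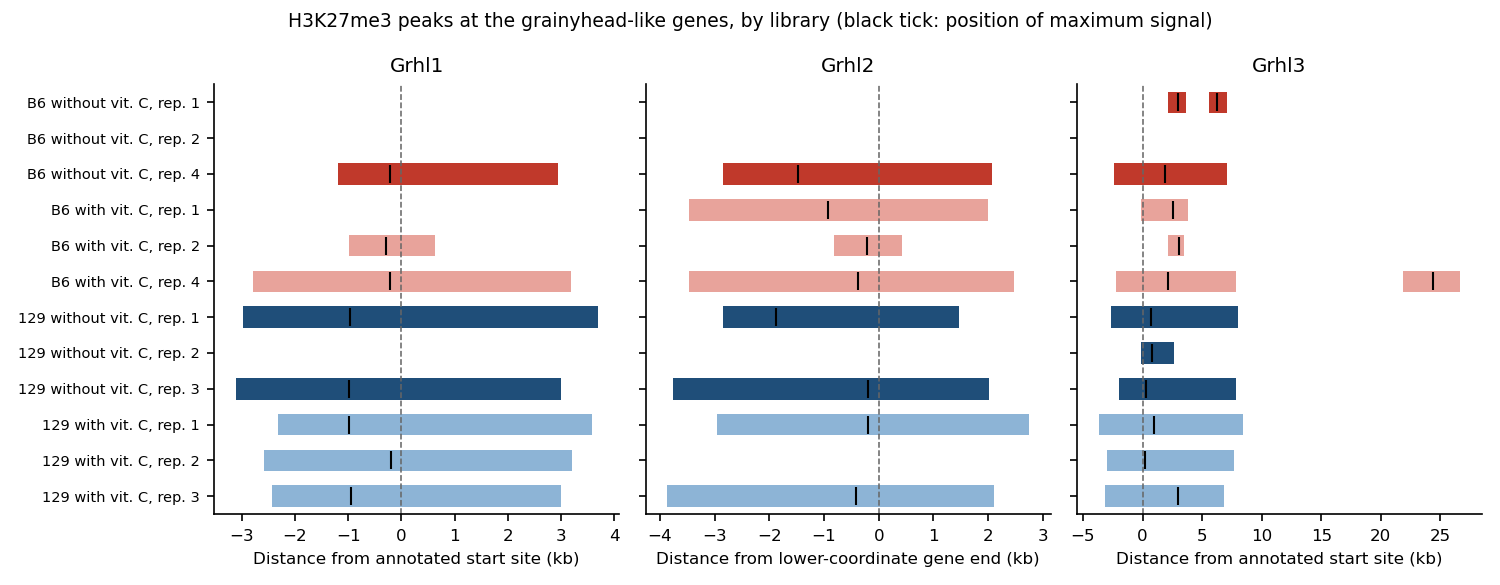
Extents of the H3K27me3 peaks at Grhl1, Grhl2 and Grhl3 in each of the 12 libraries (rows), as distance in kb from the annotated start site (Grhl1, Grhl3) or the lower-coordinate end of the gene span (Grhl2), positive into the gene. Black ticks mark the position of maximum signal, which lies left of 0 in 8 of 8 libraries for Grhl1 and Grhl2 and right of 0 in 11 of 11 for Grhl3.

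Within most lists the peaks at Grhl3 ranked above those at the other family members by total signal and by width, and less clearly by maximum signal. By total signal the strongest Grhl3 peak stood at a median percentile of 72.2 over 11 lists (18.0 to 89.3), the Grhl1 peak at 54.4 over 8 (11.7 to 66.9) and the Grhl2 peak at 42.0 over 8 (4.30 to 63.7). Percentiles run from 0 to 100 within a list, the highest being the strongest, and the signal values are the authors'. Grhl3 ranked above Grhl1 in 7 of the 8 lists that held both, and above Grhl2 in 7 of 8, with B6 with vitamin C replicate 2 the exception in either case. By width, the median percentiles were 75.9 for Grhl3, 42.6 for Grhl1 and 45.1 for Grhl2. By maximum signal, the medians for the same peaks were 59.9 for Grhl3, 43.5 for Grhl1 and 50.9 for Grhl2. On that scale Grhl3 stood below Grhl1 in B6 without vitamin C replicate 4 (23.8 against 35.7). It stood below Grhl2 in 129 with vitamin C replicate 3 (59.9 against 69.2). All 3 genes tied at 43.1 in B6 with vitamin C replicate 2, and Grhl3 was above in the other shared lists. Peaks at Grhl1 and Grhl2 thus lay near the middle of their lists in most libraries. In B6 without vitamin C replicate 4 the Grhl1 and Grhl2 peaks stood at percentiles 11.7 and 4.30 by total signal, near the lower end of that list. These ranks come from lists of different lengths and were not tested between groups.

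**Figure D2:**
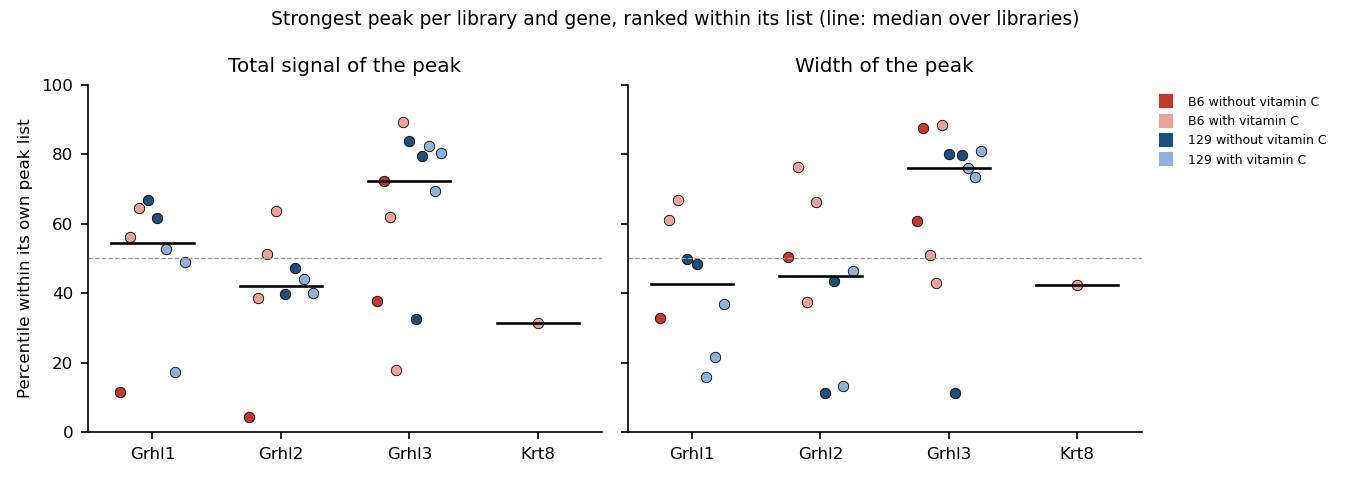
Percentile, within its own list, of the strongest peak at each gene by total signal (left) and by width (right), with 1 point per library that held a peak, coloured by group, and a line at the median. Grhl3 has the highest median on both scales, 72.2 and 75.9, and Krt8 has a single point.

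Calls at Grhl1 and Grhl2 fell largely in the same libraries, and how often other pairs of genes do so was not computed. The libraries with neither were B6 without vitamin C replicates 1 and 2 and 129 without vitamin C replicate 2. Their lists covered the least genome of all, 3.58, 4.15 and 6.97 Mb, so shared calls cannot be told apart from list size. Both were called in 7 libraries and neither in 3, while 129 with vitamin C replicate 2 held Grhl1 without Grhl2 and B6 with vitamin C replicate 1 held Grhl2 without Grhl1. All 7 libraries with both also held Grhl3, and Grhl3 was called without either relative in 2, B6 without vitamin C replicate 1 and 129 without vitamin C replicate 2. B6 without vitamin C replicate 2 held none of the 7 genes. Over the 12 libraries the percent of the gene window covered had a Pearson r of 0.87 between Grhl1 and Grhl3, 0.68 between Grhl2 and Grhl3 and 0.62 between Grhl1 and Grhl2, as a description of points that share a list. Among the 3460 genes with a peak in at least 2 libraries, the highest r values on other chromosomes were 0.99 for Igfbpl1, 0.98 for Zadh2 and 0.98 for Esx1 with Grhl1, 0.98 for Fgf16, Rgs9bp and Syndig1 with Grhl2, and 0.97 for Grip2, 0.95 for Rasl10b and 0.95 for Dtx1 with Grhl3. These genes were picked for having the highest values over 12 points that share lists, so high r was ensured by the choice. They show no particular likeness to the members.

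Coverage of all 3 genes went with the size of the list. A list that covers more of the genome covers more of genes in general, so such a rise is partly built in. The relation was not computed for other genes, so it cannot be called particular to these 3. The p-values below take embryos as independent, although those of B6 with vitamin C have the same pregnancy code. The covered length at Grhl3 correlated with the length of genome covered by the whole list (r = 0.89, permutation p = 0.00018, rho = 0.92, permutation p = 6.0e-05, n = 12, two-sided). For Grhl1 r was 0.89 (permutation p = 0.00012) and rho 0.89 (permutation p = 0.00028), and for Grhl2 r was 0.77 (permutation p = 0.00604) and rho 0.79 (permutation p = 0.00326). These were 3 of 9 relations computed over the 12 libraries, and the largest Benjamini-Hochberg adjusted p of the 6 values above was 0.0181. The same 9 relations were also computed within each background. Each set of 9 was adjusted on its own, apart for r and rho. Without the 2 lists farthest from the median, r was 0.92 for Grhl3, 0.87 for Grhl1 and 0.67 for Grhl2. The other list measures followed the genes less closely, with r of 0.41, 0.40 and 0.52 for the number of peaks and 0.64, 0.74 and 0.40 for the median peak width, for Grhl3, Grhl1 and Grhl2.

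Within B6 the r with covered length was 0.95, 0.84 and 0.86 for Grhl3, Grhl1 and Grhl2 (exact permutation p = 0.0167, 0.05 and 0.00556, adjusted 0.075, 0.15 and 0.05, n = 6). Spearman's rho within B6 was 0.83, 0.82 and 0.99 (exact permutation p = 0.0583, 0.0667 and 0.00556, adjusted 0.2, 0.2 and 0.05). Within 129 r was 0.90, 0.87 and 0.84 (exact permutation p = 0.0194, 0.0583 and 0.0444, adjusted 0.1, 0.105 and 0.1, n = 6). Spearman's rho within 129 was 0.94, 0.77 and 0.75 (exact permutation p = 0.0167, 0.103 and 0.106, adjusted 0.15, 0.19 and 0.19). No adjusted p within a background was below 0.05, that of Grhl2 in B6 lying at 0.05. Without the 2 lists of B6 farthest from their median, r within B6 was 0.96, 0.73 and 0.95. Without the 2 lists farthest from the median of 129, r within 129 was 0.55 for Grhl3, 0.38 for Grhl1 and 0.68 for Grhl2, so these values rest partly on those lists.

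**Figure D3:**
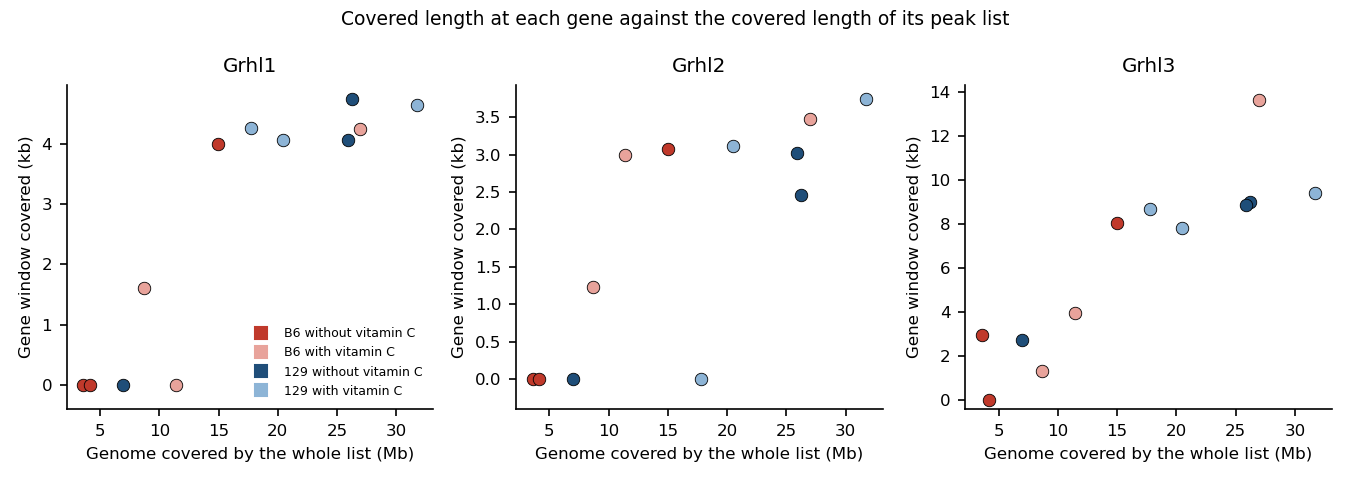
Length of each gene window under peaks (y axis, kb) against the length of genome covered by all peaks of the same list (x axis, Mb), 1 point per library, coloured by group. The points climb together for all 3 genes, with r of 0.89, 0.77 and 0.89 for Grhl1, Grhl2 and Grhl3.

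Diet was compared first, with embryos lacking the supplement set against those that had it. For the 3 grainyhead-like genes the mark was called in fewer libraries without vitamin C. The ranges of coverage overlapped between diets in either background, and no difference passed adjustment. Grhl1 was marked in 3 of 6 libraries without and 5 of 6 with vitamin C, Grhl2 in 3 and 5, and Grhl3 in 5 and 6. Of the 3460 genes with a peak in at least 2 libraries, the mark was found less often without vitamin C at 62.2% and more often at 7.31%, so the direction was that of most genes tested.

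At Grhl3, peaks covered 8.78%, 0% and 23.9% of the gene window in B6 without vitamin C, against 11.7%, 3.88% and 40.4% in B6 with it. In 129 they covered 26.6%, 8.13% and 26.3% without vitamin C, against 27.9%, 25.7% and 23.1% with it. The groups overlapped in both backgrounds, and the only low value in 129 was that of replicate 2 without vitamin C. The means were 10.9 ± 12.1% and 18.7 ± 19.3% in B6 and 20.3 ± 10.6% and 25.6 ± 2.40% in 129, without and with vitamin C (SD, n = 3). The difference over both backgrounds was -6.50 percentage points (exact permutation of diet labels within background, two-sided, p = 0.385, adjusted p = 0.800). It depended on single libraries, being -1.06 points without B6 with vitamin C replicate 4 and -10.2 points without B6 with vitamin C replicate 2.

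At Grhl1, coverage was 0%, 0% and 8.47% in B6 without vitamin C, against 0%, 3.42% and 8.99% in B6 with it. In 129 it was 10.1%, 0% and 8.60% without vitamin C, against 9.84%, 9.02% and 8.59% with it. Every library that held a wide peak thus had nearly the same coverage, and the groups differed by which libraries lacked one. The means were 2.82 ± 4.89% and 4.14 ± 4.54% in B6 and 6.22 ± 5.43% and 9.15 ± 0.635% in 129, without and with vitamin C (SD, n = 3). The difference was -2.12 points (exact permutation p = 0.36, adjusted p = 0.800). It was -0.569 points without replicate 2 of 129 without vitamin C, and 3.11 points when only peaks at or above the median maximum signal were kept.

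At Grhl2, coverage was 0%, 0% and 2.31% in B6 without vitamin C, against 2.26%, 0.929% and 2.62% in B6 with it. In 129 it was 1.85%, 0% and 2.27% without vitamin C, against 2.82%, 0% and 2.34% with it. The B6 groups overlapped through replicate 4 without vitamin C, and each 129 group had a library at 0%. The means were 0.770 ± 1.33% and 1.93 ± 0.889% in B6 and 1.38 ± 1.21% and 1.72 ± 1.51% in 129, without and with vitamin C. The difference was -0.755 points (exact permutation p = 0.29, adjusted p = 0.800). Adjustment was over the 3460 genes tested, of which 0.0% passed an adjusted p of 0.05 and 2.05% (71 genes) an unadjusted p of 0.05. The median difference over those genes was -2.76 points, and 2941 of them had lower mean coverage without vitamin C. In this test 400 relabellings are possible and 0.005 is the smallest p. No gene can then pass adjustment unless at least 347 genes have low p-values together, so the absence of adjusted calls does not show that genes were alike. It takes embryos as independent, although those of B6 with vitamin C have the same pregnancy code.

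**Figure D4:**
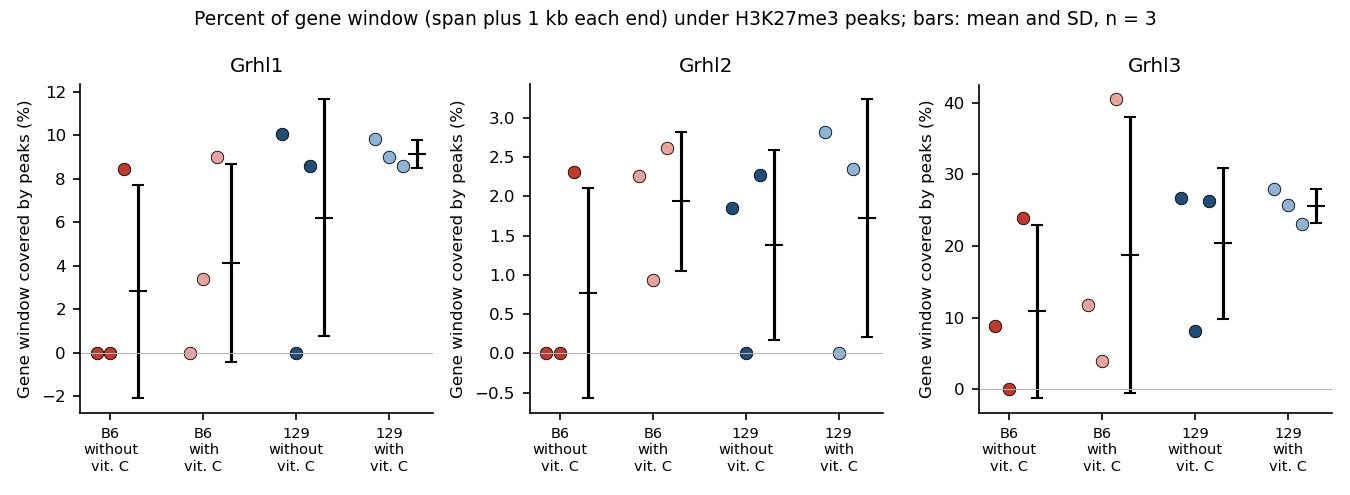
Percent of the gene window (span plus 1 kb at each end) under H3K27me3 peaks at Grhl1, Grhl2 and Grhl3, 1 point per library in 4 groups, with the mean and SD (n = 3) beside each group. The ranges of the groups without and with vitamin C overlap in either background for all 3 genes.

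Within a single background the diets could not be separated either. In B6 the differences without minus with vitamin C were -7.80 points for Grhl3, -1.31 for Grhl1 and -1.16 for Grhl2 (exact permutation p = 0.6, 0.7 and 0.3). In 129 they were -5.21, -2.93 and -0.346 points (exact permutation p = 0.7, 0.7 and 0.6). With 3 libraries against 3 the smallest p is 0.1. The diet difference in B6 minus that in 129 was -2.59 points for Grhl3, 1.62 for Grhl1 and -0.818 for Grhl2 (exact permutation p = 0.85, 0.865 and 0.61, adjusted p = 1 for each). Of the genes tested, 0.0% passed an adjusted p of 0.05 for this difference and 0.0867% (3 genes) an unadjusted one.

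The backgrounds were compared next, B6 set against 129. Grhl3 was marked in 5 of 6 libraries of B6 and 6 of 6 of 129, Grhl1 in 3 and 5, and Grhl2 in 4 and 4. Coverage at Grhl3 averaged 14.8 ± 15.0% in B6 and 23.0 ± 7.44% in 129 (SD, n = 6), and at Grhl1 3.48 ± 4.28% in B6 and 7.69 ± 3.82% in 129. Coverage at Grhl2 averaged 1.35 ± 1.20% in B6 and 1.55 ± 1.24% in 129. The differences were -8.16, -4.21 and -0.197 points (exact permutation of background labels within diet, p = 0.245, 0.095 and 0.835, adjusted p = 0.410, 0.290 and 0.916). Of the genes tested, 59.3% were marked in fewer libraries of B6 and 10.9% in more. Mean coverage was lower in B6 at 3143 of them, with a median difference of -5.32 points. Of them, 0.0% passed an adjusted p of 0.05 and 16.9% (584 genes) an unadjusted one. The lists of 129 also held wider peaks, and the library numbers in the labels ran with the background, so background and library series cannot be told apart. Within the libraries without vitamin C the differences were -9.46, -3.40 and -0.606 points, and within those with it -6.87, -5.02 and 0.212 points, for Grhl3, Grhl1 and Grhl2 (exact permutation, lowest p = 0.2, smallest possible 0.1).

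Among the keratins the mark was called once. The Krt8 peak of B6 with vitamin C replicate 4 ran from 102002849 to 102007095 on chromosome 15 (4.25 kb), covered the start site and 25.9% of the gene window, and stood at percentile 31.5 of its list by total signal. Krt8 was at 0% in the other 11 libraries, so no comparison between groups was made. Krt18, transcribed from the opposite strand beside it, had 0% in all 12. The nearest peak to Krt18 was the Krt8 peak in that library, 21.1 kb away, and lay 109 to 709.1 kb away in the others. In 8 of the 11 lists with no peak at Krt8 the nearest one overlapped Igfbp6, which encodes a binding protein of insulin-like growth factors, at 136.7 to 138.9 kb. Krt5, within the type II keratin cluster of the same chromosome, had its nearest peak 151.4 to 975.6 kb away. In 8 of 12 libraries that peak overlapped another gene of the cluster, Krt87 or Krt90. Trp63, the longest of the genes at 208.3 kb, lay 1179 to 5090 kb from the nearest peak, which in 8 lists was at Bcl6, a transcriptional repressor gene. The neighbours Igfbp6, Krt87, Krt90 and Bcl6 were chosen after their positions were seen.

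Other keratin genes were also examined. Of 21 further keratin genes, 19 were marked in 0 libraries, as were 79.8% of all protein-coding genes, and Krt7 and Krt19, both of simple epithelia, in 1. That library was again B6 with vitamin C replicate 4, which marked 17.1% of protein-coding genes, more than any other.

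Transcription factor genes of the surface ectoderm were marked far more often. Of 15 such genes other than the members, 9 were marked in at least 10 libraries, against 5.93% of all protein-coding genes, and 13 in at least 1. Gata3 was marked in 12 libraries, and Tfap2c, Dlx3, Ovol1, Msx2 and Foxi3 in 11. Tfap2a, an AP-2 factor of ectoderm and neural crest, was marked in 9, and Klf5 in 4. Elf3 and Foxi1 were marked in 0. Median coverage was 96.2% at Dlx3, 46.0% at Gata3, 49.2% at Tfap2c and 37.4% at Ovol1, above the 23.5% at Grhl3, on windows of different length. In the diet comparison 0 of the 13 genes tested passed adjustment, and Ovol1, which restrains epidermal progenitor growth, had the only unadjusted p below 0.05 (-16.2 points, exact permutation p = 0.04, adjusted p = 0.800).

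Genes known to be activated by grainyhead factors, or to interact with them, ranged from 0 to 11 marked libraries. Of 12, 8 were marked in at least 1 library, against 20.2% of all protein-coding genes. Only 1 was marked in at least 10 libraries, a share near the 5.93% of all protein-coding genes. It was Ovol2, an epithelial zinc finger repressor gene, in 11. Esrp1, an epithelial splicing regulator, and Arhgef19, a guanine nucleotide exchange factor downstream of Grhl3, were marked in 9, and the claudin gene Cldn6 in 7. The adhesion genes Cldn4, Cdh1 (E-cadherin) and Epcam were marked in 4, 3 and 2 libraries, and each of these libraries had vitamin C. At Cldn4, 3 of the 4 were the B6 embryos with vitamin C, which have the same pregnancy code. Their lists included those of 4726 and 4320 peaks, the longest of all. Of the 3460 genes tested, 4.94% were marked in 0 libraries without and at least 2 with vitamin C, and the neural genes Otx2 and Sox2 were among them. At Cldn4 the difference of -52.1 points did not pass adjustment (exact permutation p = 0.05, adjusted p = 0.800). Rab25, Vangl2, Dsg1a and Prss8 were marked in 0. Among the wider family, Tfcp2l1 was marked in 4 libraries and Tfcp2 and Ubp1 in 0.

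Genes of the p53 family and epidermal targets of p63 also varied. Trp73, the paralog of Trp63, was marked in 11 libraries, in contrast to Trp63 in 0, and Trp53 in 0. Sfn (14-3-3 sigma) and Itgb4, an integrin of hemidesmosomes, were marked in 11, and Cdkn1a, a cell cycle inhibitor gene, in 10. Jag2 was marked in 7 and Perp, a desmosomal p63 target, in 5. The basement membrane and adhesion genes Fras1, Col17a1 and Itga6 were marked in 0. In total 4 of these 12 genes were marked in at least 10 libraries, against 5.93% of all protein-coding genes.

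**Figure D5:**
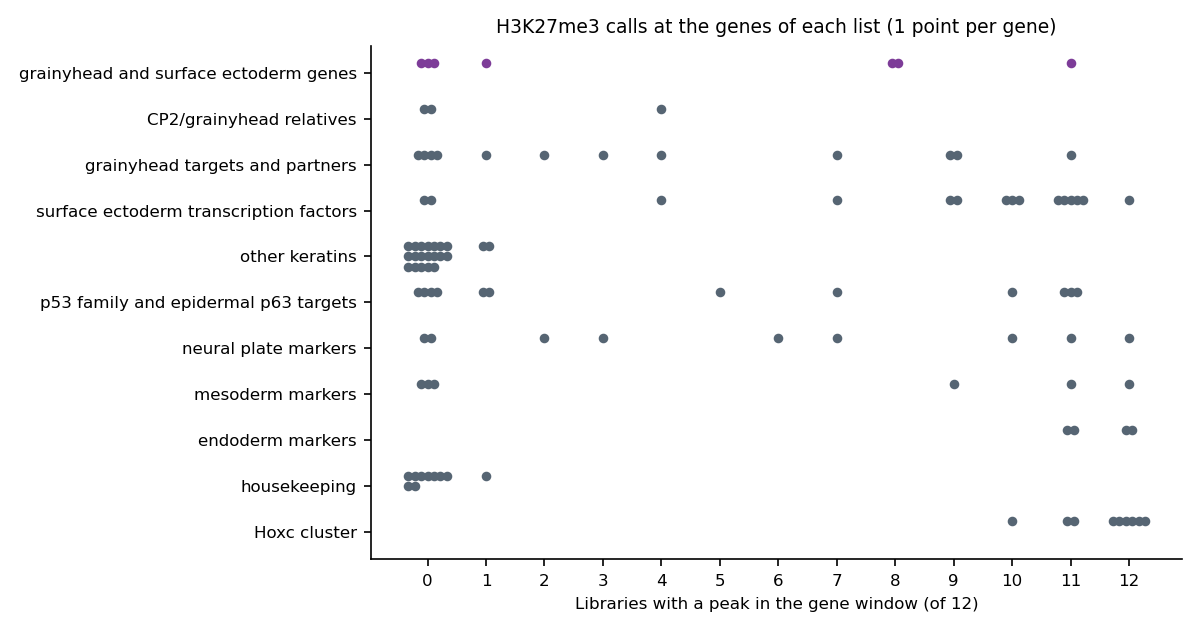
Number of libraries (x axis, of 12) with a peak in the gene window, 1 point per gene, for the 7 genes and each list (rows). The keratins and housekeeping genes lie at 0 or 1, and the surface ectoderm transcription factor genes lie mostly at 9 to 12.

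Markers of tissues gave a reference for these calls. All 9 Hoxc genes, which act in posterior segments, reached 10 or more libraries, whereas 0 of 10 housekeeping genes and 5.93% of all protein-coding genes did. Also at 10 or more were 4 of 4 endoderm marker genes (Sox17, Foxa2, Cdx2 and Foxa1) and 2 of 6 mesoderm marker genes (T and Mesp1). Of 9 neural plate marker genes, Pax6, Six3 and Sox1 were marked in at least 10 libraries, Nes and Sox3 in 7 and 6, Otx2 and Sox2 in 3 and 2, and Cdh2 and Hesx1 in 0. Peak calls show where the mark was found and not which genes were expressed, so the labelled tissue was not tested by them.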

How the data were processed

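The deposited files are 12 peak lists, 1 per H3K27me3 library, giving each peak's position and its total and maximum signal. In the deposited files the signal is in whole numbers, and no scaling by the authors could be seen. The build is mm10 and the tools are Cutadapt, Bowtie2, Picard and SEACR, per the submitters' processing notes, with versions and settings not given in the sources used here, nor whether the IgG libraries set the calls. Peaks were ranked or filtered by signal inside their own list and not across lists. Groups came from the titles, and replicate numbers, 1, 2 and 4 in B6, follow accession order and pair nothing.

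Gene positions came from RefSeq genes of GRCm38.p6. For each gene and library the percent of the span, extended by 1 kb at each end, under peaks was computed, an overlap of 1 bp counting as marked. Genes with a peak in at least 2 libraries were tested by exact permutation of diet within background, or of background within diet, with Benjamini-Hochberg adjustment and a threshold of 0.05. The p-values set each difference against those found when the labels of the embryos were exchanged. On simulated data the procedure gave the right signs, but changed genes did not pass adjustment. The members and gene lists were chosen with earlier results of these data known. Named genes were the members, the lists, genes sharing a peak with a member, and for each member marked in at least 4 libraries the 3 genes on other chromosomes with the highest Pearson r. The values of 1 listed gene are not reported here. Neighbouring genes at the nearest peaks were named after their positions were seen. Relations with list size used 100000 resamples, or all 720 orders within a background. Alternatives were windows of 0 and 5 kb, a minimum peak width of 1 kb, the stronger peaks only (maximum signal no lower than the list's median), equal lists of 748 peaks, joined peaks, presence of a peak, coverage of at least 10%, averaged littermates and single omissions. Omission of both short-peak libraries (median width below 2 kb) was chosen after seeing the data. Computation used SciPy 1.17.1, pandas 2.3.3 and NumPy 2.4.6 in Python 3.11.15, and drawing Matplotlib 3.10.9.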

Additional observations from a re-analysis of the deposited data

How the results depend on the processing

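Adjusted counts of genes for diet, background and their interaction were 0 under every alternative run. These counts do not show that the results are stable, because few relabellings are possible. The smallest possible p was 0.01 with 1 library omitted and 0.025 with littermates averaged. The number of the 7 genes marked in at least 10 libraries, 1 (Grhl3), became 0 with peaks at or above the median maximum signal (Grhl3 6, Grhl2 4, Grhl1 2 libraries), with equal lists (Grhl3 7, the others 0, so that these have no differences there), with at least 10% of the window covered (8, 0 and 1, in the same order), and without both libraries of short peaks (9, 7 and 7 of 10), where fewer libraries remained. It was 1 for each single omission, and the Krt8 call was lost without B6 with vitamin C replicate 4. The diet differences of Grhl2 and Grhl3 stayed negative under every alternative run, and that of Grhl1 reversed to 3.11 points with peaks at or above the median maximum signal. Under single omissions they ran from -3.53 to -0.569 points for Grhl1, -1.19 to -0.411 for Grhl2 and -10.2 to -1.06 for Grhl3. The background differences ran from -5.76 to -3.17 for Grhl1, -0.627 to 0.0785 for Grhl2 and -13.6 to -4.46 for Grhl3. That of Grhl2 was 0.247 without both libraries of short peaks. The interaction reversed for Grhl1 to -6.22 with peaks at or above the median maximum signal, and for Grhl3 to 1.38 with a window of 5 kb and 7.17 with equal lists. Under single omissions it ran from -1.49 to 4.05 for Grhl1, -1.59 to 0.0433 for Grhl2 and -10.0 to 8.29 for Grhl3. The causes were not tested. With presence of a peak as the measure, 1, 15 and 2 genes had an unadjusted p below 0.05 for diet, background and interaction. No paired analysis was possible because the replicate numbers follow accession order and only name samples.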

Other observations

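Genes of the lists that were marked in a single library were concentrated in 1 embryo. There were 7 of them, and 6 (Krt8, Krt7, Krt19, Tgm1, Ripk4 and Dst) were marked in B6 with vitamin C replicate 4. The other, Actb, was marked in B6 without vitamin C replicate 1. Over all protein-coding genes, 966 were marked in a single library, 505 of them (52.3%) in B6 with vitamin C replicate 4 and 222 (23.0%) in B6 with vitamin C replicate 2. The Krt8 call and the additional Grhl3 peak of 4.83 kb both come from B6 with vitamin C replicate 4.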
